A study of Mus musculus with 36 samples.

Results

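The calcium response of Rescue keratinocytes at 24 h was read from 6 of the 36 RNA-seq libraries of the study, 3 from cells given high calcium medium (HCM) and 3 from cells kept in low calcium medium (LCM). Both media held 50 µM CaCl2 at the start, and HCM was made by adding 1.2 mM CaCl2. The members are the libraries labelled as GFP-PKP4-tagged Pkp4-knockout cells grown for 24 h, and no measured value was used to choose them. Rescue cells are PKP4-KO mouse keratinocytes carrying a lentiviral transgene for human PKP4 with an N-terminal EGFP tag. They were selected with puromycin as a stable line, so all 6 libraries share the knockout, the virus and the selection. The PKP4-KO cells lack the critical exon of Pkp4 in all tissues, were taken from the skin of newborn pups and carry a C57BL/6 background. WT and PKP4-KO keratinocytes at 24 h, and Rescue cells at 72 h, served for comparison, with 3 HCM and 3 LCM libraries each. All cells grew on collagen I in a medium with EGF, cholera toxin, hydrocortisone and insulin.

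Keratinocytes held at low extracellular calcium stay in a basal, dividing state without stable cell-cell contacts. Raising calcium lets classical and desmosomal cadherins bind between neighbours, and in the hours and days that follow the cells leave the cell cycle and switch on the genes of the upper epidermis. These genes encode suprabasal keratins, the proteins that transglutaminases join into the cornified envelope, the enzymes that make barrier lipids, and the proteases that later release the dead cells. PKP4 is an armadillo protein of adherens junctions, related to p120-catenin.

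The 6 libraries held 14799229 to 20257911 counts on genes, so the floor of 3 counts lay between 0.124 and 0.196 CPM (counts scaled to library size, scaled with TMM factors as all CPM values here). Krt5 and Krt14, the defining keratins of basal keratinocytes, were present in every library with 238951 to 355269 and 310532 to 469825 counts. Tyr of melanocytes, Cd207 of Langerhans cells, Cd3e of T cells and Atoh1 of Merkel cells were at 0 in all 6 libraries. Other members of the same lists did have counts. In the Merkel cell list Sox2 held 366 to 886 counts (18.4 to 40.3 CPM) and Isl1 16 to 55. Mitf and Mlana of the melanocyte list held 9 to 63 and 4 to 25 counts, and Lyz2 of the immune list 0 to 61. The summed level of 10 fibroblast markers was 1.94 to 13.2 CPM in HCM and 2.00 to 4.26 CPM in LCM, and none of the 6 tested markers passed the test. The corresponding sums were 3.35 to 4.55 and 2.23 to 2.68 CPM for 8 melanocyte markers, 3.38 to 4.27 and 3.52 to 3.93 CPM for 5 endothelial markers, 0.894 to 4.16 and 0.319 to 3.19 CPM for 7 immune markers and 23.4 to 29.9 and 27.1 to 44.3 CPM for 5 Merkel cell markers. Of these lists only Mitf among 3 tested melanocyte markers and Krt20 among 4 tested Merkel cell markers were called. The Mitf call was lost when any 1 library was left out, and that of Krt20 without HCM 1, HCM 2, LCM 1 or LCM 2. The part of other cells in the gene results below was not tested.

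LCM 3 stood apart from the other libraries. In it, 739 of 9441 genes (7.83%) lay at least 2-fold from the mean of LCM 1 and LCM 2, against 0.170 to 2.04% in the other 5 libraries. It carried more of its counts on short genes, with 9.55% on genes under 1000 bases against 5.46 to 7.80% elsewhere, and 17.3% on ribosomal protein genes against 12.1 to 14.5%. Without LCM 3, 37 of the 181 named genes that were called lost their call and 5 others gained one, and such changes are stated beside the genes described. No library repeated another, since replicates differed by far more than sampling noise (chi-square per gene at least 7.03).

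**Figure D1:**
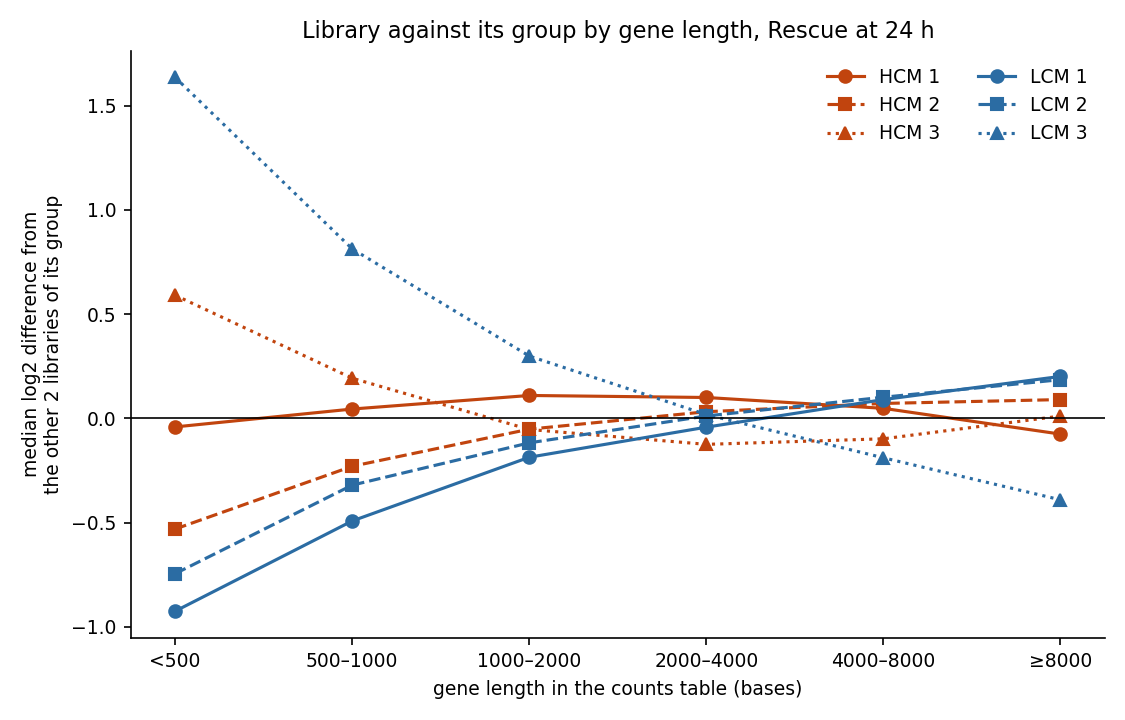
Median log2 difference of each library from the mean of the other 2 libraries of its group (vertical axis) for genes of rising length in bases (horizontal axis), with HCM in red and LCM in blue. LCM 3 ran from 1.64 for genes under 500 bases to -0.39 for genes of 8000 bases or more. LCM 1 and LCM 2 ran the opposite way, but each was compared with a mean that includes LCM 3, so their course is not a separate trait.

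The transgene was present in all 6 Rescue libraries. Its sequence drew 3408, 4140 and 3380 counts in HCM and 5916, 7038 and 1902 counts in LCM, whereas no WT or PKP4-KO library exceeded 113 counts. GFP-PKP4 stood at 195 ± 25.6 CPM in HCM and 228 ± 90.6 CPM in LCM (SD, n = 3 each), with LCM 3 the lowest of all, and the groups overlapped (exact permutation test, two-sided, p = 0.5, smallest possible p 0.1). Endogenous Pkp4 stood at 7.08 ± 0.523 CPM in HCM and 9.14 ± 0.886 CPM in LCM (SD, n = 3 each; exact permutation test, two-sided, p = 0.1, the smallest possible), with every HCM library below every LCM library. The PKP4-KO groups held 7.27 to 11.3 CPM and the WT groups 38.6 to 71.1 CPM, so the Rescue values lay near those of the knockout, whose deletion leaves other exons of the gene in place. Its edgeR log2 fold change was -0.37, SE 0.16 (adjusted p = 0.168).

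Between HCM and LCM, 1808 of 15114 tested genes (12%) changed, 907 upward (6.0%) and 901 downward (5.96%), by the quasi-likelihood test of edgeR at a Benjamini-Hochberg adjusted p under 0.05. Fold changes are HCM over LCM throughout, and the median over all tested genes was -0.04 on the log2 scale. Counts of list members below are to be read against the 6.0% higher and 5.96% lower of all tested genes. Among the called genes, 508 rose and 204 fell at least 2-fold. The lower count was 587 without LCM 2 and 599 without HCM 3. All 3 HCM libraries lay above all 3 LCM libraries for 14.7% of the tested genes and below them for 15.9%. In bulk RNA, fewer cells of a type and less RNA per cell cannot be told apart. Nothing in the labels says that the 3 Rescue libraries of a group came from separately derived lines, so the tests measure the spread between these libraries.

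Among called genes that code for proteins, averaged 1 CPM or more and had groups that did not overlap, the highest fold change was that of Kcnip3 (chromosome 2, 127298418 to 127364014, minus strand, GRCm39), which encodes the calcium-binding protein calsenilin. It stood at 13.2, 16.1 and 6.41 CPM in HCM and 0, 0.248 and 0.196 CPM in LCM (log2 fold change 6.28, SE 0.61, edgeR adjusted p = 4.66e-08), the LCM values resting on 0, 6 and 3 counts. Slc6a14, an amino acid transporter, stood at 29.3, 33.8 and 41.1 CPM in HCM and 1.27, 1.1 and 0.982 CPM in LCM (log2 fold change 4.93, SE 0.39, edgeR adjusted p = 7.98e-10). HCM 3 held less Kcnip3 than HCM 1 and HCM 2. Cldn23, a claudin of tight junctions, reached 29.0, 30.8 and 18.5 CPM in HCM and 1.5, 1.70 and 0.393 CPM in LCM (log2 fold change 4.39, SE 0.34, edgeR adjusted p = 5.31e-10). Arg1, the urea cycle arginase, stood at 7.16, 9.94 and 6.46 CPM in HCM and 0.546, 0.414 and 0.262 CPM in LCM (log2 fold change 4.21, SE 0.45, edgeR adjusted p = 1.75e-07). Groups that do not overlap were a condition for choosing all of these genes, so their lack of overlap is no separate result. Serpinb7 (4.90), Muc15 (3.84), Sprr4 (3.80), the neuropeptide gene Nts (3.79), the glucose transporter gene Slc5a1 (3.63), Klk6 (3.62), Lce1m (3.61) and Krt4 (3.55) completed the 12 highest. In LCM, Serpinb7 (0.228, 0 and 0.131 CPM) and Nts (0, 0.207 and 0.196 CPM) lay near the floor, so the size of their fold changes is uncertain. With 1 library left out it ranged from 4.25 to 5.95 for Serpinb7 and from 3.19 to 4.36 for Nts.

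The lowest fold changes by the same rule were smaller in size, and 11 of the 12 are given. Dab2, an endocytic adaptor, stood at 0.693, 0.899 and 0.547 CPM in HCM and 3.46, 4.30 and 3.99 CPM in LCM (log2 fold change -2.45, SE 0.36, edgeR adjusted p = 1.52e-05). Has3, a hyaluronan synthase, stood at 1.21, 1.43 and 0.994 CPM in HCM and 6.46, 8.57 and 4.84 CPM in LCM (log2 fold change -2.45, SE 0.51, edgeR adjusted p = 0.00119), and Nedd9, a scaffold of focal adhesions, at 2.02, 2.54 and 2.48 CPM in HCM and 10.4, 9.23 and 7.92 CPM in LCM (log2 fold change -1.96, SE 0.24, edgeR adjusted p = 1.21e-06). That the groups did not overlap in these 3 genes follows from the same rule. The others were Zfp28 (-2.55), the TGF-β co-receptor gene Eng (-2.21), Sema4c (-2.13), Samd14 (-2.06), Hip1 (-2.06), Mmp3 (-1.93), Itga2 (-1.88) and Serpina3i (-1.85). Calls of Samd14 and Mmp3 were lost when any 1 of the 6 libraries was left out, and that of Itga2 when HCM 2 was. The calls of the other 8 and of all 12 highest genes held without any single library.

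**Figure D2:**
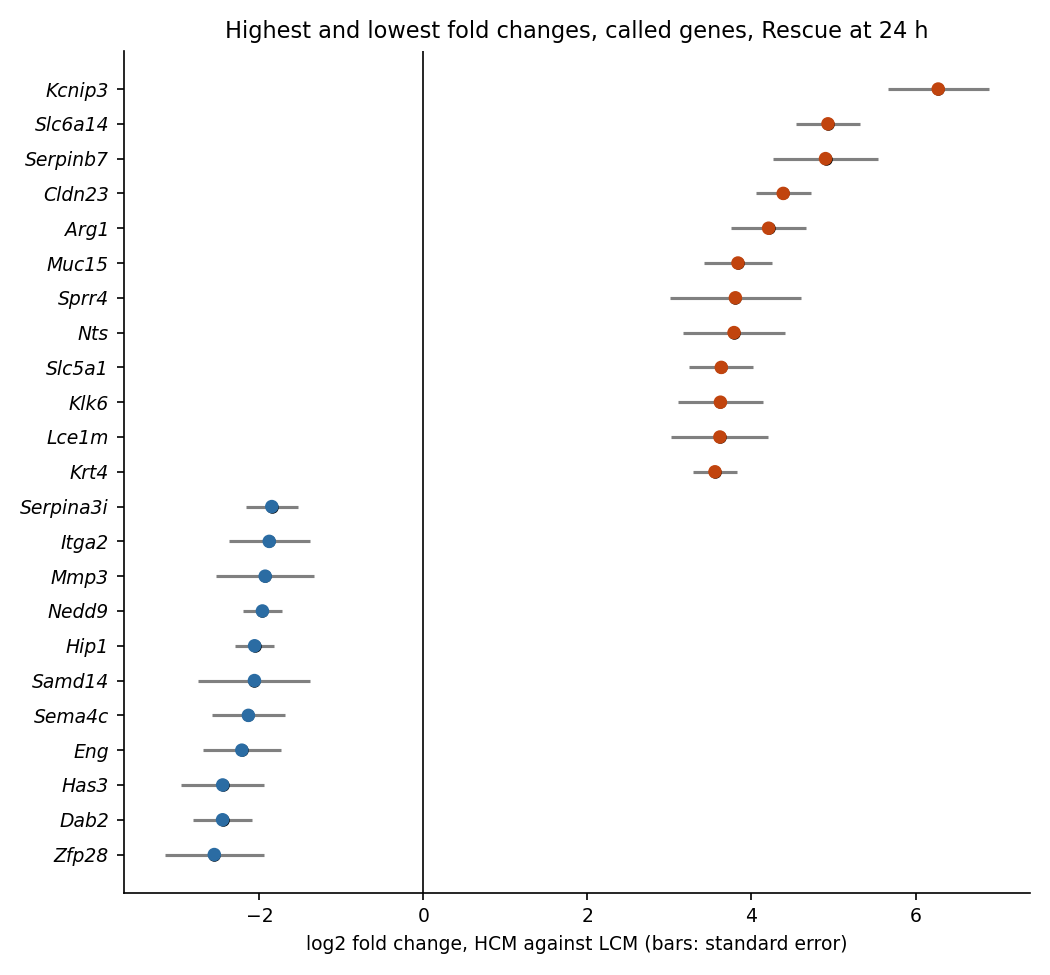
Log2 fold change of HCM over LCM (horizontal axis, bars show the standard error of the edgeR fit) for the 12 highest and 11 of the 12 lowest called genes that code for proteins, average 1 CPM or more over the 6 libraries and do not overlap between HCM and LCM. The highest values run from 3.55 for Krt4 to 6.28 for Kcnip3, and the lowest from -2.55 for Zfp28 to -1.85 for Serpina3i.

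Most suprabasal keratins rose. Of 7 tested members, 5 were higher and none lower (median 1.86), against 6.0% of all tested genes called higher. Krt10, the keratin that marks the first suprabasal layer, stood at 120, 119 and 69.1 CPM in HCM and 6.96, 7.53 and 28.5 CPM in LCM (log2 fold change 2.85, SE 0.41, edgeR adjusted p = 9.67e-06). Its partner Krt1 stood at 19.2, 20.3 and 11.8 CPM in HCM and 2.32, 2.61 and 21.4 CPM in LCM (log2 fold change 0.99, SE 0.48, edgeR adjusted p = 0.215). LCM 3 was by far the highest LCM library for both keratins, and for Krt1 it lay above all HCM libraries. Without LCM 3, Krt1 passed the test (log2 fold change 2.79, edgeR adjusted p = 2.49e-06) and Krt10 gave a larger value (log2 fold change 3.82, edgeR adjusted p = 1.33e-07). Krt4, a keratin of internal stratified epithelia, stood at 129, 139 and 67.1 CPM in HCM and 10.9, 10.1 and 7.46 CPM in LCM (log2 fold change 3.55, SE 0.27, edgeR adjusted p = 5.31e-10). Its partner Krt13 (1.27, SE 0.26), Krt23 (2.69, SE 0.33) and Krt80 (1.86, SE 0.17) were also higher. Among 7 basal and stress keratins, the wound keratins Krt6a (0.59), Krt6b (1.37) and Krt16 (1.30) rose, whereas Krt5 (log2 fold change -0.33, adjusted p = 0.293), Krt14 (log2 fold change 0.24, adjusted p = 0.365) and Krt15 (log2 fold change 0.15, adjusted p = 0.794) did not pass. Of 5 tested keratins of simple epithelia, Krt7 (0.66) and Krt20 (1.45) were called. The Krt7 call was lost when any 1 library was left out, and that of Krt20 without any of HCM 1, HCM 2, LCM 1 or LCM 2.

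Most cornified envelope genes rose. Of 56 tested members 34 were higher (60.7%) and none was lower, with a median of 1.99, and between 32 and 36 were higher with any 1 library left out. Most of these genes are short, and with an offset for gene length 41 were called higher. Lor, the main envelope protein, stood at 45.8, 55.3 and 34.5 CPM in HCM and 10.9, 12.4 and 3.99 CPM in LCM (log2 fold change 2.30, SE 0.37, edgeR adjusted p = 5.57e-05). Sprr1a, a small proline-rich envelope protein, stood at 2382, 2612 and 1710.0 CPM in HCM and 649, 768 and 796 CPM in LCM (log2 fold change 1.6, SE 0.32, edgeR adjusted p = 9.13e-04), and Ivl, involucrin, an early envelope protein, at 98.0, 108 and 95.8 CPM in HCM and 52.3, 49.3 and 37.7 CPM in LCM (log2 fold change 1.1, SE 0.27, edgeR adjusted p = 0.00467). HCM lay above LCM in every library for these 3 genes, and HCM 3 was the lowest HCM library in each. Sprr3 (3.07, SE 0.41), Lce3e (3.07, SE 0.32) and Lce1m (3.61, SE 0.59), late envelope genes, had larger fold changes from lower levels. Flg, the precursor of filaggrin, stood at 0.231, 0.212 and 0.248 CPM in HCM and 0.137, 0 and 0.131 CPM in LCM (log2 fold change 1.40, SE 0.99, edgeR adjusted p = 0.449), too few counts for a difference to be detectable at this depth. The late cornified layer gene Lce1g (log2 fold change 0.52, adjusted p = 0.447) and Krtdap (log2 fold change 0.14, adjusted p = 0.939), a secreted peptide of differentiating keratinocytes, did not pass. Counts of near-identical families such as Lce1, Lce3, Sprr2, Serpinb3 and Krt6 depend on how reads with several matches were counted, which the sources used here do not give.

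Many of these genes are neighbours. Between bases 91987578 and 93379287 of chromosome 3 (GRCm39), the stretch of the epidermal differentiation complex from Lor to Tchhl1, 28 of 52 tested protein-coding genes were higher and none was lower (median 1.90). Of the 9 genes of this stretch that were in no list, 3 were higher. In the kallikrein cluster on chromosome 7 (43339842 to 43500605, Klk14 to Klk5), 8 of 10 tested genes were higher (median 1.71). All of these 10 were members of the gene lists, so this is no separate evidence beside the list counts. In the serpin cluster on chromosome 1 (106788875 to 107477001, Serpinb5 to Serpinb10), 5 of 8 were higher (median 2.38). Only 2 of these 8 were in no list, and both were higher.

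Promoters of 4 of the genes that rose are shown because their products span the layers from first suprabasal (Krt10) to cornified (Lor, Sprr1a, Ivl). Each runs from 250 bases before to 50 after the start of transcription in RefSeq's GRCm38.p6 annotation, on the minus strand of the chromosome, and capitals mark matches to TGANTCA, the letters bound by AP-1 factors, and TATAAA, the TATA box, searched on both strands without overlap between them.
Sprr1a, chr3:92485832-92486131: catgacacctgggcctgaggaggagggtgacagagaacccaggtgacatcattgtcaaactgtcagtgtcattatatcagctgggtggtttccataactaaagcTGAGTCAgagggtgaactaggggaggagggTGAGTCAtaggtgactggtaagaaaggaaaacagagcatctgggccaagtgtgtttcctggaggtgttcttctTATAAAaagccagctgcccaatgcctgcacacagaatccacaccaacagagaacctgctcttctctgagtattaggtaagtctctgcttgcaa
Lor, chr3:92083093-92083392: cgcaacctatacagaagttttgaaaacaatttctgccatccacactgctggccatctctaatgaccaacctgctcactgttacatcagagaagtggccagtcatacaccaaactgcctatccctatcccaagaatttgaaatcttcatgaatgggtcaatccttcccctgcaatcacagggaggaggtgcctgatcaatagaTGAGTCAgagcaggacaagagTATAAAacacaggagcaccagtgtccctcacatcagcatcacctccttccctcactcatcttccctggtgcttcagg
Ivl, chr3:92573686-92573985: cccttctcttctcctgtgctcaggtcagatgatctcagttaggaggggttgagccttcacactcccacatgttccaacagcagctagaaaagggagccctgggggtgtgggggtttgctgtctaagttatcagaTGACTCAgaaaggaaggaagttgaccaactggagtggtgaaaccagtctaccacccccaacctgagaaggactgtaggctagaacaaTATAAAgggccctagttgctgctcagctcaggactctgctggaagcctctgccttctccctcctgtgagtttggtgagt
Krt10, chr11:99389315-99389614: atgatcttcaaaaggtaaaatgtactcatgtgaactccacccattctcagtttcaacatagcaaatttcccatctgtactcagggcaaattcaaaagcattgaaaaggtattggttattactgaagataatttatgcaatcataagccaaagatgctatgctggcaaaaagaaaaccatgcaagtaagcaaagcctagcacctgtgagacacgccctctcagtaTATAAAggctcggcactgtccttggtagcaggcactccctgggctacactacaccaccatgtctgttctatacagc
The Sprr1a window held AP-1 matches at -146 and -116 and a TATA match at -43, counted from the start site. Lor held them at -48 and -27, Ivl at -116 and -29, and Krt10 held only the TATA match, at -26. AP-1 matches stood in 17 of the 50 cornified envelope promoters matched by symbol among the 56 tested (34.0%) and TATA matches in 20 (40.0%). Over all 27025 promoters of the table the shares were 7.93% and 14.2%, and among 716 promoters matched to the 883 protein-coding genes called lower they were 5.03% and 6.28%. In the 28 promoters matched to the 34 envelope genes called higher, the shares were 25.0% and 35.7%. Matches are letters in a window and not measured sites. Fewer than 80% of all genes called higher could be matched, so no share is given for them.

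Most genes of the transglutaminase and barrier lipid list, called the barrier lipid list below, rose. Of 32 tested members, 25 were higher (78.1%), 1 was lower and the median was 1.04. Tgm1, the transglutaminase that cross-links the envelope, stood at 297, 287 and 226 CPM in HCM and 90.9, 102 and 104 CPM in LCM (log2 fold change 1.45, SE 0.20, edgeR adjusted p = 7.97e-06). Alox12b, a lipoxygenase that acts on barrier ceramides, stood at 51.1, 61.8 and 36.8 CPM in HCM and 16.9, 20.5 and 12.2 CPM in LCM (log2 fold change 1.59, SE 0.27, edgeR adjusted p = 1.26e-04), and Cers3, the synthase of ultra-long ceramides, at 158, 165 and 145 CPM in HCM and 85.6, 87.9 and 51.1 CPM in LCM (log2 fold change 1.06, SE 0.22, edgeR adjusted p = 9.92e-04). All HCM libraries exceeded all LCM libraries for these 3 genes. The epidermal lipases Lipm (2.26, SE 0.27) and Lipk (2.08, SE 0.26), the dehydrogenase gene Sdr9c7 (1.81, SE 0.27) and the membrane protease gene Prss8 (1.83, SE 0.41) were higher too. The lipid transporter gene Abca12 (0.85, SE 0.28) was called, but with a library left out only without LCM 2. The member that fell was the tissue transglutaminase gene Tgm2 (-1.28), named here after its value was seen, and its call was lost without HCM 1, HCM 2, LCM 1 or LCM 2. Tgm3 (log2 fold change 0.43, adjusted p = 0.148), which acts in the cornified layer, did not pass.

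Most epidermal proteases and protease inhibitors rose. Of 19 tested kallikreins and serpins 14 were higher (73.7%) and none was lower (median 1.85), and 14 or 15 were with any library left out. Klk5 and Klk7, the proteases that cut desmosomal proteins in the stratum corneum, stood at 10.6, 12.2 and 9.09 CPM in HCM and 1.27, 2.28 and 2.03 CPM in LCM (log2 fold change 2.51, SE 0.37, edgeR adjusted p = 1.31e-05) and at 48.1, 57 and 37.4 CPM in HCM and 8.87, 10.9 and 8.90 CPM in LCM (log2 fold change 2.31, SE 0.31, edgeR adjusted p = 3.51e-06). Spink5, which encodes their inhibitor LEKTI, stood at 271, 358 and 285 CPM in HCM and 72.6, 64.7 and 28.7 CPM in LCM (log2 fold change 2.46, SE 0.44, edgeR adjusted p = 1.98e-04). The libraries of the groups did not overlap for any of the 3. Serpinb2 (2.41, SE 0.31) and Serpinb3b (3.41, SE 0.41), intracellular protease inhibitors, were also higher.

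**Figure D3:**
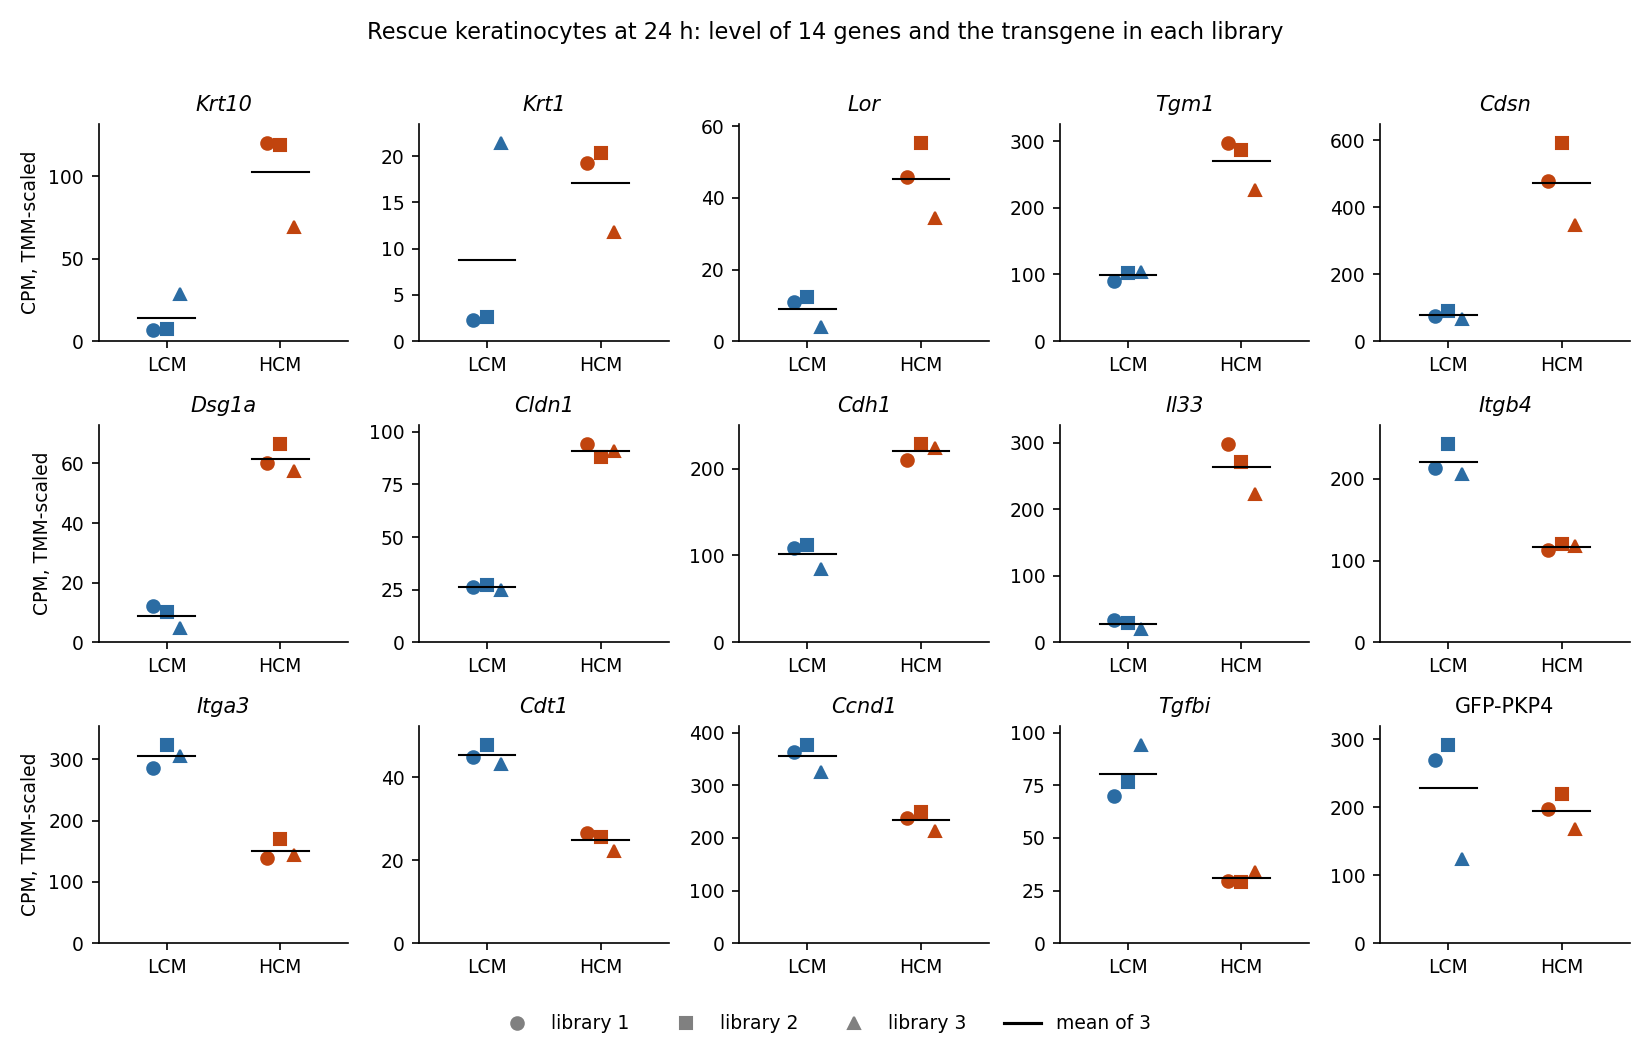
Level in each library (vertical axis, CPM scaled with TMM factors, starting at 0 in each panel) in LCM (blue) and HCM (red) for 14 genes and the transgene, with a line at the mean of 3 libraries. HCM and LCM do not overlap in 13 genes, whereas Krt1 and GFP-PKP4 overlap through LCM 3.

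Most desmosome genes rose. Of 17 tested members 11 were higher (64.7%) and none lower (median 1.18), but only 6 were without LCM 3 and 7 without HCM 2. Dsg1a, a desmoglein of the upper layers, stood at 60.3, 66.4 and 57.4 CPM in HCM and 12, 10 and 4.78 CPM in LCM (log2 fold change 2.77, SE 0.39, edgeR adjusted p = 7.37e-06). Cdsn, corneodesmosin, which joins the desmosome as cells cornify, stood at 478, 591 and 346 CPM in HCM and 76.1, 89.7 and 67.7 CPM in LCM (log2 fold change 2.60, SE 0.21, edgeR adjusted p = 8.71e-10). Both were higher in every HCM library than in any LCM library, and Dsg1b (1.77, SE 0.35), Dsc2 (1.6, SE 0.38) and the tetraspan protein gene Perp (1.30, SE 0.16) rose as well. Dsg3 (0.97, SE 0.26) was called, but not without HCM 3 or LCM 3 (0.78 without LCM 3). Dsc3 (1.18, SE 0.38) lost its call without any 1 library, and Dsc1 (1.89, SE 0.59) lost it without HCM 1, HCM 2, LCM 1 or LCM 3 (1.48 without LCM 3). The plaque genes Dsp (log2 fold change 0.39, adjusted p = 0.516), Jup (log2 fold change 0.49, adjusted p = 0.114) and Pkp1 (log2 fold change 0.23, adjusted p = 0.233) did not pass.

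Tight junction genes were higher in 8 of 20 tested members (40.0%) and lower in none (median 0.65), and 6 or 7 were higher with a library left out. Cldn1, the main claudin of the epidermal barrier, stood at 94.1, 88.1 and 91.0 CPM in HCM and 26.4, 27.3 and 24.9 CPM in LCM (log2 fold change 1.80, SE 0.19, edgeR adjusted p = 1.51e-07). Ocln, occludin, stood at 15.6, 19.5 and 16 CPM in HCM and 4.19, 5.21 and 3.93 CPM in LCM (log2 fold change 1.93, SE 0.32, edgeR adjusted p = 7.39e-05). Their HCM values were tight and lay well above LCM. Cldn4 (1.29, SE 0.17), the tricellular junction gene Marveld2 (1.55, SE 0.30) and the adaptor gene Cgn (1.25, SE 0.24) were higher. Tjp1, which encodes ZO-1 (0.84, SE 0.26), was called except without HCM 2, HCM 3, LCM 2 or LCM 3 (0.71 without LCM 3).

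Adherens junction genes moved in both directions, with 4 of 19 tested members higher and 3 lower (median -0.03). Cdh1, E-cadherin, stood at 211, 228 and 224 CPM in HCM and 108, 112 and 83.9 CPM in LCM (log2 fold change 1.1, SE 0.18, edgeR adjusted p = 5.39e-05), and its HCM libraries lay above every LCM library. Cdh3, P-cadherin of basal cells, stood at 65.9, 67.8 and 66.5 CPM in HCM and 87.9, 87.7 and 97.3 CPM in LCM (log2 fold change -0.45, SE 0.14, edgeR adjusted p = 0.0325) and lost its call when any 1 library was left out. Nectin2, an adhesion receptor, rose (1.1, SE 0.14), and Nectin4 was called (0.80, SE 0.24) except without HCM 1, HCM 2, LCM 1 or LCM 2. The p120-family gene Arvcf fell (-0.67, SE 0.15). Of the lower members only Arvcf was still called without HCM 3. Epb41l5 (1.08, SE 0.28) was called except without LCM 3 (0.88). Catenin genes did not pass, with β-catenin (Ctnnb1) at log2 fold change 0.07, adjusted p = 0.927 and p120 (Ctnnd1) at log2 fold change -0.25, adjusted p = 0.707. Among 7 plakophilin and p120 family genes, Pkp3 (0.46, SE 0.14) and Arvcf were called, the former not without HCM 1, HCM 2, LCM 1 or LCM 3. None of 8 gap junction genes passed, and Gja1, connexin 43, stood at log2 fold change -0.11, adjusted p = 0.663.

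Many genes that anchor basal cells to the matrix fell. Of 21 tested integrin and hemidesmosome genes 10 were lower (47.6%), against 5.96% of all tested genes, and none was higher (median -0.64), with 7 to 9 lower when a library was left out. Itgb4, the hemidesmosomal integrin β4, stood at 112, 119.8 and 118 CPM in HCM and 213, 242 and 206 CPM in LCM (log2 fold change -0.92, SE 0.15, edgeR adjusted p = 9.41e-05). Itga3, part of the laminin receptor, stood at 139, 169.5 and 145 CPM in HCM and 287, 323 and 305 CPM in LCM (log2 fold change -1.02, SE 0.13, edgeR adjusted p = 3.51e-06). Both were lower in every HCM library than in any LCM library. Itga2, the collagen-binding integrin α2, stood at 2.37, 0.846 and 2.14 CPM in HCM and 7.78, 7.78 and 4.12 CPM in LCM (log2 fold change -1.88, SE 0.49, edgeR adjusted p = 0.0105). The cytolinker gene Plec (-1.08, SE 0.14), Col17a1 (-0.69, SE 0.13) and the laminin-332 chain genes Lama3 (-0.89, SE 0.19) and Lamb3 (-0.93, SE 0.18) fell too. The partner of β4, Itga6, stood at 133, 152 and 172 CPM in HCM and 304, 287 and 168 CPM in LCM and did not pass (log2 fold change -0.73, SE 0.31, edgeR adjusted p = 0.133), nor without LCM 3 (log2 fold change -0.95, edgeR adjusted p = 0.0643).

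Many cell cycle genes fell. Of 51 tested members 22 were lower (43.1%) and none was higher (median -0.40), but 13 were lower without HCM 2, 14 without LCM 2 and 15 or 16 without another library. Cdt1, which licenses replication origins, stood at 26.5, 25.6 and 22.2 CPM in HCM and 44.9, 47.6 and 43.1 CPM in LCM (log2 fold change -0.87, SE 0.14, edgeR adjusted p = 4.33e-05). Ccnd1, cyclin D1, stood at 239, 248 and 213 CPM in HCM and 364, 376 and 326 CPM in LCM (log2 fold change -0.61, SE 0.12, edgeR adjusted p = 4.49e-04), and both were lower in every HCM library. The helicase gene Mcm2 (-0.72, SE 0.13) and the mitotic kinase genes Plk1 (-0.73, SE 0.15) and Aurkb (-0.70, SE 0.14) fell as well. Cdk1 (-0.40, SE 0.12) and E2f1 (-0.70, SE 0.20) lost their calls without HCM 2, HCM 3 or LCM 3. The proliferation marker gene Mki67 (log2 fold change -0.12, adjusted p = 0.907) and Top2a (log2 fold change -0.41, adjusted p = 0.492) did not pass. Among 24 p53 targets and cell cycle inhibitors 2 were higher (8.33%) and 1 lower (4.17%), near the 6.0% and 5.96% of all tested genes. Perp, which is also a desmosome gene, was 1 of the 2 higher members. The other, Cdkn2b (0.76, SE 0.25), lost its call when any 1 library was left out, while Cdkn1a, p21, stood at log2 fold change 0.29, adjusted p = 0.576. The lower member Bbc3 (-0.86, SE 0.24) was not called without HCM 3, LCM 1 or LCM 2.

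**Figure D4:**
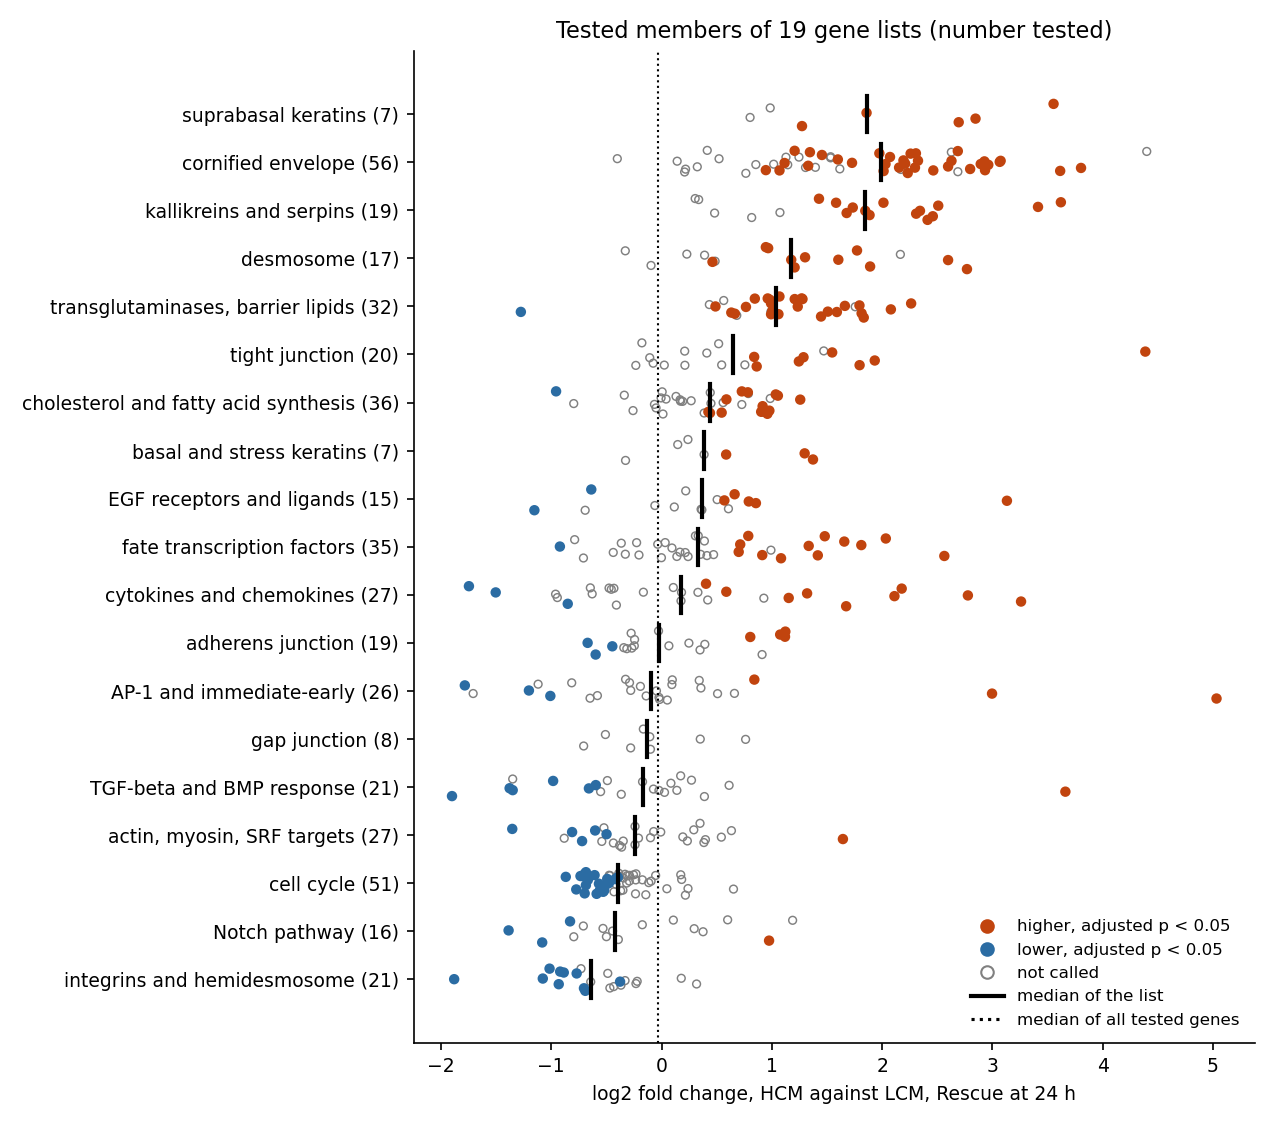
Log2 fold change of HCM over LCM (horizontal axis) of every tested member of the gene lists (1 row each), filled where the member was called and open where it was not, with a line at the list median. Members of the envelope, barrier lipid, protease and desmosome lists that were called lie to the right of 0 except Tgm2, and called members of the integrin and cell cycle lists lie to the left.

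Transcription factors of keratinocyte fate were higher in 12 of 35 tested members and lower in 1 (median 0.33). Elf5, an ETS factor, stood at 12.9, 10.4 and 8.60 CPM in HCM and 1.96, 1.99 and 1.37 CPM in LCM (log2 fold change 2.56, SE 0.41, edgeR adjusted p = 6.22e-05). Hopx, a homeodomain protein of suprabasal cells, stood at 179, 192 and 121 CPM in HCM and 40.4, 48.1 and 31.6 CPM in LCM (log2 fold change 2.03, SE 0.16, edgeR adjusted p = 5.31e-10). The differentiation factors Grhl1 (1.81, SE 0.21), Cebpa (1.66, SE 0.20), Zfp750 (1.4, SE 0.15) and Ovol1 (0.91, SE 0.16) rose, all with groups that did not overlap. Prdm1 (1.33, SE 0.36) was not called without HCM 2 or LCM 3, nor Grhl3 (0.79, SE 0.19) without LCM 3, which gave 1.15 and 0.60. Ovol2 was the member that fell (-0.92, SE 0.26), a call lost without HCM 3 or LCM 1. Trp63, the master factor of basal keratinocytes, stood at 97.3, 92.4 and 98.8 CPM in HCM and 188, 173 and 110.3 CPM in LCM (log2 fold change -0.71, SE 0.28, edgeR adjusted p = 0.101), and LCM 3 lay close to the HCM libraries. Klf4 (log2 fold change 0.35, adjusted p = 0.321) and Gata3 (log2 fold change 0.41, adjusted p = 0.587), factors of barrier formation, did not pass. Of 16 tested Notch pathway genes, the ligand gene Jag2 (-1.39, SE 0.18) and the modifiers Dtx4 (-1.08, SE 0.22) and Lfng (-0.83, SE 0.16) fell, whereas the Notch target Nrarp (0.98, SE 0.24) rose except without HCM 2 or LCM 3 (0.72 without LCM 3). Notch1 (log2 fold change -0.50, adjusted p = 0.167) and Hes1 (log2 fold change 0.11, adjusted p = 0.864) did not pass.

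Few early-response genes were called, in both directions. Of 26 tested AP-1 and immediate-early genes 3 were higher and 3 lower (11.5% each, median -0.09), against 6.0% and 5.96% of all tested genes. Egr1, a growth factor-induced zinc finger factor, stood at 2.94, 2.70 and 2.43 CPM in HCM and 11.2, 11.1 and 5.43 CPM in LCM (log2 fold change -1.78, SE 0.24, edgeR adjusted p = 4.34e-06). Its relative Egr3 stood at 8.54, 8.67 and 5.57 CPM in HCM and 1.59, 0.786 and 0.393 CPM in LCM (log2 fold change 3.0, SE 0.47, edgeR adjusted p = 3.48e-05) and Egr2 at 0.751, 0.952 and 0.547 CPM in HCM and 0.0455, 0 and 0 CPM in LCM (edgeR adjusted p = 0.00467), its LCM level resting on 1 count. All HCM libraries were below LCM for Egr1 and above it for Egr2 and Egr3. The ERK phosphatase gene Dusp6 fell (-1.2, SE 0.21) and the stress-induced Dusp1 rose (0.84, SE 0.17), while Fosl1 (-1.01, SE 0.27) was not called without HCM 3 or LCM 2. Fos (log2 fold change -0.05, adjusted p = 0.949) and Jun (log2 fold change -0.28, adjusted p = 0.374) did not pass. In the EGF receptor list 5 of 15 tested members rose and 2 fell (median 0.37). Btc, betacellulin, a ligand of the receptor, stood at 4.04, 5.02 and 1.99 CPM in HCM and 0.546, 0.579 and 0.0655 CPM in LCM (log2 fold change 3.13, SE 0.58, edgeR adjusted p = 3.03e-04), HCM above LCM in each library. The receptor inhibitors moved apart, with Errfi1 higher (0.86, SE 0.19) and Lrig1 lower (-1.15, SE 0.21), while the receptor gene Erbb3 was higher (0.66, SE 0.16). Tgfa (0.79, SE 0.20) was called except without LCM 3 (0.63), and Egfr stood at log2 fold change 0.37, adjusted p = 0.234. Without TMM factors only 1 member of this list was called higher.

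In a list of TGF-β and BMP response genes, which also holds ligand and regulator genes, 6 of 21 tested members fell and 1 rose (median -0.17). Tgfbi, a matrix protein, stood at 29.6, 29.2 and 33.6 CPM in HCM and 70.0, 76.3 and 93.9 CPM in LCM (log2 fold change -1.38, SE 0.13, edgeR adjusted p = 3.58e-08), and the ligand gene Tgfb1 at 22.7, 19.4 and 21.3 CPM in HCM and 49.5, 53.9 and 57.9 CPM in LCM (log2 fold change -1.35, SE 0.15, edgeR adjusted p = 3.56e-07). For both genes no HCM library reached the LCM range. The feedback gene Pmepa1 (-0.98, SE 0.18) and the co-repressor gene Ski (-0.66, SE 0.14) fell, while the inhibitor gene Smad7 did not pass (log2 fold change -0.17, adjusted p = 0.795). The pseudoreceptor gene Bambi rose (3.66, SE 0.79), with 3.14 to 6.13 when 1 library was left out. No member of the list was called higher in the exact test or in the fit on the compared groups. The same held among genes with at least 10 counts in every library.

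Cytokine genes of the epithelium were higher in 9 of 27 tested members and lower in 3 (median 0.18). Il33, an alarmin held in the nucleus, stood at 298, 271 and 223 CPM in HCM and 33.1, 29.1 and 20.4 CPM in LCM (log2 fold change 3.26, SE 0.24, edgeR adjusted p = 5.31e-10). Il18, a cytokine made as an inactive precursor, stood at 72.1, 58.0 and 53.5 CPM in HCM and 8.83, 7.33 and 10.7 CPM in LCM (log2 fold change 2.78, SE 0.36, edgeR adjusted p = 2.41e-06), and Tslp, thymic stromal lymphopoietin, at 97.1, 75.6 and 74.6 CPM in HCM and 37.6, 34.6 and 26.7 CPM in LCM (log2 fold change 1.32, SE 0.32, edgeR adjusted p = 0.00551). All 3 were higher in every HCM library. The IL-36 genes Il36a (1.67, SE 0.39) and Il36b (2.11, SE 0.22) and their antagonist gene Il36rn (2.18, SE 0.19) rose together. The neutrophil factors went the other way, with the chemokine gene Cxcl1 at 78.0, 50.6 and 85.6 CPM in HCM and 189, 177 and 242 CPM in LCM (log2 fold change -1.5, SE 0.25, edgeR adjusted p = 9.29e-05) and Csf3 lower by -1.75, SE 0.25. Il1a (log2 fold change 0.18, adjusted p = 0.710) and Il1b (log2 fold change 0.11, adjusted p = 0.969) did not pass. Of 16 tested interferon-stimulated genes, only the RNA sensor gene Ddx58 was called (0.94, SE 0.21), and it was not called without TMM factors.

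Genes that handle calcium itself showed no common direction, with 5 of 43 tested members higher (11.6%) and 7 lower (16.3%, median 0.07). Atp2b4, a plasma membrane calcium pump, stood at 11.1, 10.3 and 12.4 CPM in HCM and 5.28, 5.42 and 5.11 CPM in LCM (log2 fold change 1.09, SE 0.21, edgeR adjusted p = 4.92e-04), and Pthlh, parathyroid hormone-like hormone, at 2.48, 3.33 and 3.33 CPM in HCM and 8.51, 8.11 and 6.94 CPM in LCM (log2 fold change -1.36, SE 0.21, edgeR adjusted p = 4.12e-05). The groups did not overlap in either gene. The phospholipase gene Plcd1 (0.81, SE 0.12) and the ER calcium-binding protein gene Rcn1 (0.81, SE 0.18) rose. The entry channel gene Orai1 (log2 fold change 0.34, adjusted p = 0.223), its sensor Stim1 (log2 fold change 0.05, adjusted p = 0.832) and the ER pump gene Atp2a2 (log2 fold change 0.06, adjusted p = 0.942) did not pass. The higher count was 3 without LCM 1 and the lower count 4 without HCM 3. Of 12 tested S100 genes, S100a16 (0.83, SE 0.18) and S100a7a (1.2, SE 0.36) rose, the latter with a library left out only without HCM 3, while S100a8 stood at log2 fold change 0.14, adjusted p = 0.958.

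Genes of the actin cytoskeleton were lower in 5 of 27 tested members and higher in 1 (median -0.24). Myh9, nonmuscle myosin IIA, stood at 218, 242 and 199 CPM in HCM and 414, 435 and 307 CPM in LCM (log2 fold change -0.81, SE 0.19, edgeR adjusted p = 0.00446), and Myh14, nonmuscle myosin IIC, at 89.3, 100 and 54.8 CPM in HCM and 28.6, 30.6 and 18.7 CPM in LCM (log2 fold change 1.64, SE 0.27, edgeR adjusted p = 5.91e-05). HCM lay below LCM for Myh9 and above it for Myh14, without overlap. Zyx, a protein of focal adhesions and stress fibres (-1.35, SE 0.17), Vasp (-0.60, SE 0.12) and the SRF co-activator gene Mrtfa (-0.72, SE 0.14) fell, and Actb did not pass (log2 fold change -0.88, adjusted p = 0.423). Among single genes that the study itself examined, and so no independent evidence of a direction, Arhgef2, a guanine nucleotide exchange factor, stood at 36.5, 39.0 and 28.5 CPM in HCM and 62.9, 65.7 and 48.6 CPM in LCM (log2 fold change -0.77, SE 0.14, edgeR adjusted p = 2.74e-04), and all of its HCM values were below LCM. Arhgap24, which encodes a GTPase-activating protein, was called higher (log2 fold change 0.96), and its call was lost under 7 of the alternatives. Rhob, a small GTPase, fell (-0.78, SE 0.15), and Limk1 (-0.60, SE 0.20) lost its call when any 1 library was left out. The products of Rhob and of the LIM kinase gene were not among those that the paper measured. Rhoa (log2 fold change -0.18, adjusted p = 0.303), Rock1 (log2 fold change -0.04, adjusted p = 0.983), Rock2 (log2 fold change -0.01, adjusted p = 0.996) and Arhgap23 (log2 fold change -0.37, adjusted p = 0.103) did not pass. YAP/TAZ targets showed 3 higher and 3 lower of 20 tested (15% each), with F3, tissue factor, higher (0.87, SE 0.19), Gadd45b higher (0.81, SE 0.17) and Dock5 lower (-1.2, SE 0.20). The classical targets Ccn1 (log2 fold change -0.19, adjusted p = 0.743) and Ccn2 (log2 fold change -0.29, adjusted p = 0.694) did not pass. The lower count was 1 without HCM 3, and the higher count 2 without any library but LCM 1.

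Among 16 tested matrix protease genes 3 were higher and 3 lower (median -0.51). Mmp28, epilysin, stood at 1.62, 0.793 and 0.994 CPM in HCM and 3.82, 4.22 and 2.09 CPM in LCM (log2 fold change -1.58, SE 0.38, edgeR adjusted p = 0.00487), and Mmp2, gelatinase A, at 2.42, 2.59 and 1.74 CPM in HCM and 0.546, 0.869 and 0.982 CPM in LCM (log2 fold change 1.5, SE 0.31, edgeR adjusted p = 0.00129). Neither gene overlapped between the groups. The lower count was 1 without HCM 1 or LCM 3. Of 17 tested genes of epithelial-mesenchymal transition 2 were higher and 2 lower, and only Ovol1, also counted among the fate factors, kept its call with each library left out in turn. Snai2 (log2 fold change -0.48, adjusted p = 0.12), Vim (log2 fold change -0.47, adjusted p = 0.798) and Fn1 (log2 fold change -0.29, adjusted p = 0.640) did not pass.

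Sterol synthesis was the metabolic list with the most calls. Of 36 tested genes of cholesterol and fatty acid synthesis 13 were higher and 1 lower (median 0.44), with 8 higher without HCM 2 and 9 to 12 without another library. Idi1, isopentenyl diphosphate isomerase, stood at 71.2, 74.6 and 52.9 CPM in HCM and 36.2, 29.0 and 17.8 CPM in LCM (log2 fold change 1.26, SE 0.28, edgeR adjusted p = 0.00229), and Msmo1, a sterol demethylase, at 123, 119 and 115 CPM in HCM and 61.9, 65.6 and 44.2 CPM in LCM (log2 fold change 1.06, SE 0.17, edgeR adjusted p = 4.33e-05). Both were higher in every HCM library. Sc5d (0.98, SE 0.12) and malic enzyme (Me1, 1.04, SE 0.22) rose, Sqle (0.78, SE 0.21) was not called without HCM 2 or LCM 3 (0.64 without LCM 3), and the fatty acid synthase gene Fasn (log2 fold change -0.26, adjusted p = 0.509) did not pass. The member called lower was Fads1 (-0.96), a fatty acid desaturase, named after its value was seen. Glycolysis and hypoxia genes were higher in 2 (6.90%) and lower in 5 (17.2%) of 29 tested. With a library left out, 0 or 1 were higher (0 without HCM 2) and 1 to 4 lower (1 without LCM 2, 2 without LCM 1). Slc2a1, the glucose transporter GLUT1 (-0.51, SE 0.14), lost its call without LCM 2 or LCM 3, and Hk2, hexokinase 2 (-0.52, SE 0.13), without LCM 1 or LCM 2. NRF2 targets showed 3 of 22 higher and 3 lower (13.6% each), with 1 lower without HCM 2 or HCM 3. Srxn1 (1.21, SE 0.13) and Gsta1 (1.11, SE 0.25), detoxifying enzymes, rose and Keap1, the inhibitor of NRF2, fell (-0.58, SE 0.10). Of 22 ER stress genes Dnajb9 (0.88, SE 0.27) and Xbp1 (0.43, SE 0.14) were called (9.09%), neither without HCM 1, HCM 2 or LCM 3. Only 1 member of the list was called higher without LCM 1 or without LCM 2.

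The response of Rescue cells was then set beside those of WT cells, PKP4-KO cells and Rescue cells at 72 h, which share no library with it. At 24 h, 2143 genes (14.2%) changed with calcium in WT, 7.69% upward and 6.48% downward, and 428 (2.83%) in PKP4-KO, and at 72 h 3769 (24.9%) changed in Rescue. Genes called in the same direction in WT numbered 1192, which is 65.9% of the Rescue calls and 55.6% of the WT calls, and 2 were called in opposite directions. In PKP4-KO 256 were shared (14.2% of the Rescue calls, 59.8% of the PKP4-KO calls) and 4 opposed. At 72 h 622 were shared (34.4% and 16.5%) and 216 opposed. The 907 genes higher in Rescue at 24 h had a median log2 fold change of 1.1 in these libraries, which chose them, against 1.08 in WT cells, 0.34 in PKP4-KO cells and 0.30 at 72 h. For the 901 lower genes the medians were -0.72, -0.58, -0.28 and -0.22.

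**Figure D5:**
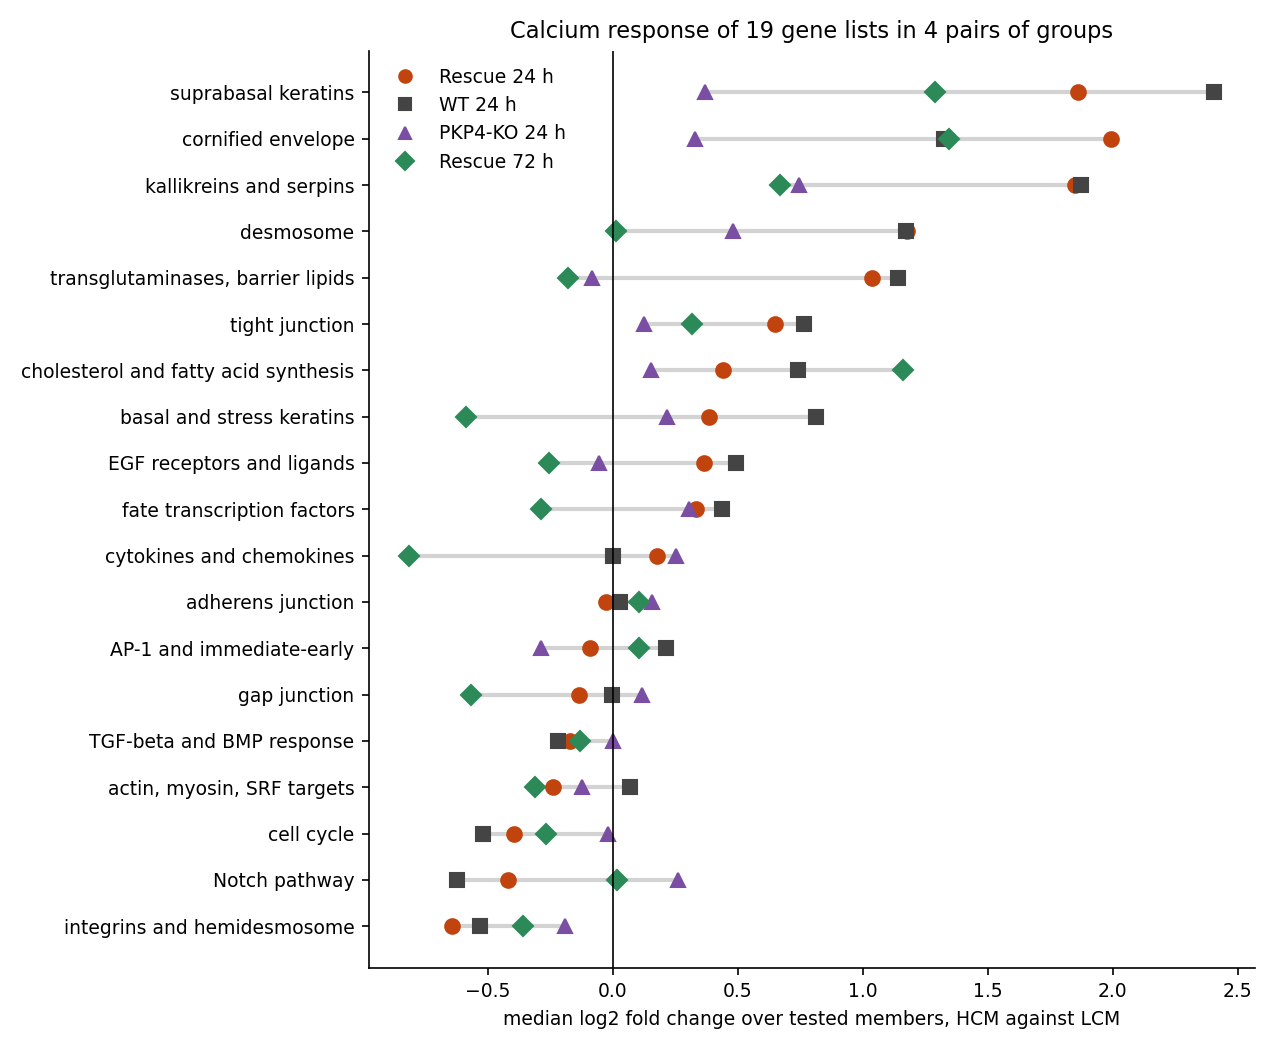
Median log2 fold change of HCM over LCM (horizontal axis) of the tested members of each gene list in Rescue at 24 h, WT at 24 h, PKP4-KO at 24 h and Rescue at 72 h (symbols). The cornified envelope list has medians of 1.99, 1.33, 0.33 and 1.34, and the barrier lipid list 1.04, 1.14, -0.08 and -0.18.

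The difference of each pair of responses was tested directly in the same fit. All 3 differences contain the 6 Rescue libraries of 24 h, so they are not independent of each other. Rescue cells carry the virus and passed puromycin selection, which is not described for the WT and PKP4-KO cells sequenced. In the differences from WT and PKP4-KO, the transgene product, the virus, the selection and the line therefore cannot be told apart. Against WT, the calcium effect differed for 10 genes (0.0662%), 2 more positive in Rescue (0.0132%) and 8 more negative (0.0529%), with 984 genes at an unadjusted p under 0.05. Fitted on the compared groups alone, the test called 0 genes (908 at an unadjusted p under 0.05), and DESeq2 called 50. Krt15, a basal keratin, stood at 43.2, 38.1 and 33.1 CPM in HCM and 27.4, 27.8 and 48.3 CPM in LCM in Rescue and at 43.0, 46.6 and 36.2 CPM in HCM and 6.71, 6.30 and 8.07 CPM in LCM in WT (difference of the log2 fold changes -2.43, SE 0.36, edgeR adjusted p = 0.00172). WT cells in LCM were the low group, and the other 3 groups overlapped. Areg, the EGF receptor ligand amphiregulin, was lower in HCM than in LCM in every Rescue library, at 37.3, 43.2 and 37.2 CPM in HCM and 68.5, 77.9 and 43.6 CPM in LCM, and higher in every WT library, at 10.9, 8.98 and 12 CPM in HCM and 3.01, 3.62 and 4.95 CPM in LCM (difference of the log2 fold changes -2.15, SE 0.39, edgeR adjusted p = 0.0158). Aqp5, a water channel, stood at 1.15, 1.27 and 0.696 CPM in HCM and 0.455, 0.621 and 1.11 CPM in LCM in Rescue and at 10.9, 21.4 and 14 CPM in HCM and 0.899, 0.350 and 0.677 CPM in LCM in WT (difference of the log2 fold changes -4.02, SE 0.60, edgeR adjusted p = 0.00172). The 3 WT libraries in HCM lay above all 9 others. Id3, an inhibitor of helix-loop-helix factors, stood at 46.7, 39.3 and 45.0 CPM in HCM and 47.2, 48.6 and 73.0 CPM in LCM in Rescue and at 18.9, 21.6 and 23.3 CPM in HCM and 51.8, 62.6 and 54.9 CPM in LCM in WT (difference of the log2 fold changes 1.04, SE 0.21, edgeR adjusted p = 0.0391), where HCM was below LCM in every library in both but the gap was wider in WT. Without HCM 1 or without LCM 2, 4 genes differed from WT. The Areg call was lost without TMM factors, with the length offset and without HCM 1, HCM 3 or LCM 2. That of Id3 was lost without a filter on low counts and without HCM 1, HCM 3, LCM 1 or LCM 2.

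Against PKP4-KO, 213 genes (1.41%) differed, 150 more positive in Rescue (0.992%) and 63 more negative (0.417%). The differentiation lists held many of them. In the cornified envelope list 10 of 56 were more positive and none more negative, in the barrier lipid list 9 of 32, among kallikreins and serpins 4 of 19 and among suprabasal keratins 3 of 7. Within PKP4-KO itself, 2 of 7 suprabasal keratins were called higher with calcium. Krt1 stood at 143, 104 and 82.5 CPM in HCM and 38.6, 19.2 and 13.8 CPM in LCM in PKP4-KO. Krt10 stood at 135, 110 and 80.9 CPM in HCM and 41.7, 25.6 and 22.0 CPM in LCM in PKP4-KO. Neither keratin overlapped between the PKP4-KO groups. Krt4 stood at 1.35, 1.97 and 0.960 CPM in HCM and 2.61, 1.1 and 1.40 CPM in LCM in PKP4-KO (difference of the log2 fold changes 3.74, SE 0.41, edgeR adjusted p = 5.29e-06), below every Rescue library, LCM included. Arg1 stood at 0.606, 0.711 and 0.222 CPM in HCM and 0.987, 0.251 and 0.187 CPM in LCM in PKP4-KO (difference of the log2 fold changes 3.89, SE 0.73, edgeR adjusted p = 0.00316), under 1 CPM in all 6 libraries. The log2 fold change was also larger in Rescue for Sprr1a (by 1.94), Alox12b (2.07), Ivl (2.44), Klk7 (2.45), Cdsn (2.74) and Cldn23 (3.04). Nedd9 stood at 28.8, 34.4 and 25.7 CPM in HCM and 22.5, 29.7 and 35.6 CPM in LCM in PKP4-KO with groups that overlapped (difference of the log2 fold changes -1.98, SE 0.33, edgeR adjusted p = 8.91e-04). Egr1 in PKP4-KO stood at 6.06, 7.07 and 9.01 CPM in HCM and 6.49, 8.23 and 5.34 CPM in LCM (difference of the log2 fold changes -1.92, SE 0.33, edgeR adjusted p = 0.00128). Without HCM 2 the number of differing genes fell to 103, without LCM 3 to 121 and without HCM 1 to 131.

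Between 24 h and 72 h of calcium, the effect in Rescue cells differed for 1896 genes (12.5%), 938 more positive at 24 h (6.21%) and 958 more negative (6.34%). Il33 stood at 20.7, 22.2 and 35.7 CPM in HCM and 138, 94.5 and 132 CPM in LCM at 72 h (difference of the log2 fold changes 5.48, SE 0.33, edgeR adjusted p = 1.03e-11), so that every HCM library was above LCM at 24 h and every one below it at 72 h. Pycard, the inflammasome adaptor ASC, turned in the same way, from 8.72, 8.73 and 5.12 CPM in HCM and 0.728, 1.37 and 0.720 CPM in LCM at 24 h to 0.371, 0.428 and 0.714 CPM in HCM and 2.68, 5.60 and 4.57 CPM in LCM at 72 h (difference of the log2 fold changes 6.04, SE 0.72, edgeR adjusted p = 1.19e-06). Kcnip3 stood at 0.927, 0.467 and 0.761 CPM in HCM and 0.770, 1.62 and 0.577 CPM in LCM at 72 h (difference of the log2 fold changes 6.69, SE 0.82, edgeR adjusted p = 1.62e-06), with groups that overlapped. In the other direction, Lce1g stood at 3.98, 6.03 and 3.68 CPM in HCM and 3.69, 2.65 and 3.21 CPM in LCM at 24 h and at 246, 221 and 172 CPM in HCM and 7.33, 8.62 and 5.98 CPM in LCM at 72 h (difference of the log2 fold changes -4.35, SE 0.52, edgeR adjusted p = 1.1e-06). Its HCM libraries at 72 h exceeded all others by far.

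The lists divided by time. More positive effects at 24 h were found for 19 of 32 members of the barrier lipid list (Tgm1 by 3.81, Alox12b by 4.22), 11 of 17 desmosome genes (Dsg1a by 1.84), 9 of 19 kallikreins and serpins (Klk5 by 3.44), 19 of 35 fate factors (Zfp750 by 2.64, Ovol1 by 2.47), 12 of 27 cytokine genes and 4 of 20 tight junction genes. The cornified envelope list split, with 10 more positive at 24 h (Sprr4 by 3.03, Lor by 1.94) and 8 more negative, 7 of them Lce1 genes between -4.35 and -2.61 and the other Tchh. Among suprabasal keratins 5 were more positive, and Krt10 was more negative (-2.21). Sterol and fatty acid genes were more negative at 24 h in 14 of 36 and more positive in none, and glycolysis and hypoxia genes in 10 of 29 against 2. Among the 72 h Rescue libraries the share of counts on genes under 1000 bases was 5.24 to 13.3%, among the WT libraries of 24 h 4.92 to 11.1% and among the PKP4-KO libraries of 24 h 5.02 to 11%. With an offset for gene length in the fit, 9 of the 10 genes differing from WT, 190 of the 213 from PKP4-KO and 1695 of the 1896 from 72 h were called in the same direction again.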

How the data were processed

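Poly(A) RNA of the 36 cultures was sequenced strand-specifically in paired ends. The authors aligned the reads with HISAT2 2.1.0 to a genome of mm39 plus the transgene, filtered out secondary alignments with SAMtools 1.10 and counted reads per gene with featureCounts 2.0.0 on Ensembl annotation of GRCm39. The deposited values are raw read counts per gene for each library, with gene symbols, lengths and biotypes, and hold no normalization. The strand setting and the treatment of reads with several matches are not given in the sources used here.

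From these counts, genes were filtered with edgeR's filterByExpr (15114 of 55358 genes kept), scaled with TMM factors and fitted with edgeR 4.0.16 in R 4.3.3 as 12 groups of 3 libraries (24 residual degrees of freedom). Contrasts were tested with the quasi-likelihood test and Benjamini-Hochberg adjustment over all tested genes. They were the calcium effect in Rescue at 24 h, and its differences from WT at 24 h, PKP4-KO at 24 h and Rescue at 72 h. Sample groups came from the submitters' labels. Levels of Pkp4 and the transgene were also compared with exact permutation tests, which at 3 against 3 libraries cannot go below p = 0.1. On simulated counts with 2-fold changes in 96 tested genes, the calcium contrast called 40.6%, and with 4-fold changes in 98 genes 71.4%. Replicates differed beyond counting noise (chi-square per gene 7.03 to 111), and the floor of 3 counts covers counting error only.

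The members and the 38 gene lists were chosen with earlier results of these data known, so they support nothing on their own. Genes named were the 12 highest and 12 lowest by fold change (called, coding for proteins, at 1 CPM or more on average, groups not overlapping), leading list members and up to 4 further called members per list, the 4 largest and 4 smallest values of each difference by the same level and biotype limits (all that passed, where fewer), and Pkp4 with its transgene. A few further genes were named after their values were seen, where a count was small or a list differed between responses. Promoters came from a RefSeq table of GRCm38.p6, which is another build than that of the counts. Alternatives were DESeq2 1.42.0, other filters, no TMM factors, edgeR's exact test, a fit on the compared groups only, a replicate block, each library left out in turn and, chosen after seeing the data, an offset for gene length. A few items that these rules take in, 1 gene list among them, are not reported here.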

Additional observations from a re-analysis of the deposited data

Results flagged for a closer look

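The calcium effect of Rescue cells at 24 h differed from that in WT, in PKP4-KO or at 72 h for the genes below by a test of the difference itself (edgeR's quasi-likelihood test), each value being the Rescue 24 h log2 fold change minus the other.

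Against WT 10 genes differed. Those that code for proteins and averaged 1 CPM or more were Aqp5 (-4.02), X4930523C07Rik (-2.44, symbol as the counts table writes it), Krt15 (-2.43), Areg (-2.15), Mmp2 (2.41) and Id3 (1.04). X4930523C07Rik stood at 1.67, 1.64 and 1.64 CPM in HCM and 2.64, 3.68 and 3.67 CPM in LCM in Rescue and at 0.979, 0.862 and 0.408 CPM in HCM and 0.423, 0.292 and 0.104 CPM in LCM in WT. Mmp2 stood at 0.618, 0.503 and 0.510 CPM in HCM and 1.11, 1.11 and 0.885 CPM in LCM in WT, below every Rescue library in HCM. Both calls were lost without a filter on low counts and without HCM 1 or LCM 2, that of X4930523C07Rik also without TMM factors and that of Mmp2 also without HCM 2 or LCM 1.

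Against PKP4-KO 213 genes differed, with the most negative differences in Kif26b (-2.30), Cdhr1 (-2.06), Nedd9 (-1.98) and Egr1 (-1.92), and the most positive in Serpinb7 (4.79), Arg1 (3.89), Aldh1a3 (3.81) and Krt4 (3.74). Serpinb7 was near the floor in PKP4-KO, at 0.140, 0.335 and 0.148 CPM in HCM and 0.211, 0.351 and 0.0468 CPM in LCM. Kif26b, a kinesin-related gene, stood at 1.04, 1.32 and 1.49 CPM in HCM and 1.46, 1.61 and 1.96 CPM in LCM in Rescue and at 5.03, 4.69 and 4.06 CPM in HCM and 0.564, 1.41 and 1.59 CPM in LCM in PKP4-KO. The Kif26b call was lost without TMM factors and without HCM 1, HCM 2 or LCM 3. Aldh1a3, which makes retinoic acid, stood at 8.03, 9.31 and 5.17 CPM in HCM and 0.592, 1.53 and 0.327 CPM in LCM in Rescue and at 0.0466, 0.209 and 0.369 CPM in HCM and 0.423, 0.301 and 0.234 CPM in LCM in PKP4-KO. All 3 Rescue libraries in HCM lay above the other 9 for Aldh1a3.

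Against 72 h 1896 genes differed, with the most negative differences in Prl2a1 (-4.91), Ddr2 (-4.40), Lce1g (-4.35) and Gpnmb (-4.34), and the most positive in Kcnip3 (6.69), Pycard (6.04), Il33 (5.48) and Pla2g4d (5.46). Gpnmb, a transmembrane glycoprotein gene, stood at 0.924, 1.06 and 1.29 CPM in HCM and 2.87, 3.85 and 3.27 CPM in LCM at 24 h and at 71.4, 67.1 and 24.9 CPM in HCM and 8.43, 9.57 and 6.51 CPM in LCM at 72 h. Pla2g4d, a phospholipase gene, stood at 1.04, 1.22 and 1.24 CPM in HCM and 0.273, 0.372 and 0.785 CPM in LCM at 24 h and at 0.788, 0.428 and 0.523 CPM in HCM and 11.5, 8.84 and 10.2 CPM in LCM at 72 h, with log2 fold changes of 1.33 at 24 h and -4.13 at 72 h. Over the 24 h libraries Prl2a1 was at 0 to 0.596 CPM and Ddr2 at 0.0994 to 0.728 CPM. The Prl2a1 call was lost in DESeq2 and without HCM 1, HCM 2, LCM 1 or LCM 2, and that of Ddr2 without LCM 1. Groups of 3 libraries were not tested for single samples far from the rest.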

How the results depend on the processing

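The count of genes called for the calcium effect in Rescue at 24 h (1808) was 1203 of 28780 without a filter on low counts and 1296 to 1451 with 1 library left out, and it stayed within 1.5 times under the other alternatives. Against WT (10 genes), DESeq2 called 50, no filter 5, the offset for gene length 20, the fit on the compared groups 0 (908 at an unadjusted p under 0.05) and leaving out 1 library 4 to 9, with 0 higher and 4 lower without HCM 1 or without LCM 2. Against PKP4-KO (213), DESeq2 called 401, library sizes without TMM factors 108, no filter 132, the fit on the compared groups 56 and leaving out 1 library 103 to 274, with 131 without HCM 1, 103 without HCM 2 and 121 without LCM 3. Against 72 h (1896) the count was 1488 to 1796 with 1 library left out. Without TMM factors the median over all genes shifted to 0.23 against WT and -0.17 against 72 h, and the split of higher and lower calls became 5 and 2 against WT, 93 and 15 against PKP4-KO and 547 and 850 against 72 h. Other splits that moved by over 10 percentage points were DESeq2's 18 and 32 against WT, and those without a filter, 730 and 473 for the calcium effect, 0 and 5 against WT and 115 and 17 against PKP4-KO. With 47 and 9 against PKP4-KO, the fit on the compared groups moved its split as well. Without HCM 3 the split against PKP4-KO was 222 and 52. The cause of these shifts was not tested.

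The labels do not say whether replicate numbers pair the samples, and the main fit used no pairing. Same-numbered libraries correlated by 0.05, 0.23 and 0.29 in their deviations, and libraries of different number by -0.27 to 0.18. HCM 2 and HCM 3 correlated best with the LCM library of their own number, and HCM 1 with LCM 2, so these values do not settle the question. With a replicate block 1576, 9, 170 and 1662 genes were called, Areg, Krt1 and Pla2g4d passed for the calcium effect, and Id3 no longer differed from WT. In the paired form of the exact permutation test, p was 0.25 for Pkp4, the smallest possible with 3 pairs, and 0.5 for GFP-PKP4. The difference of GFP-PKP4 (HCM minus LCM) ranged from -85.7 to -2.32 CPM and that of Pkp4 from -2.53 to -1.65 CPM with 1 library left out. Of 181 named genes called, DESeq2 kept 181, the length offset 175, the block 167, no filter 160, no TMM factors 139 and leaving out 1 library 144 to 158, and no direction turned. A level under 3 counts, 0.124 to 0.196 CPM, was not distinguishable from 0 at this depth.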

Other observations

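Further lists differed between 24 h and 72 h of calcium in Rescue cells, where 6.21% of all tested genes were more positive and 6.34% more negative at 24 h. In the EGF receptor list 6 of 15 tested members were more positive at 24 h and 1 more negative. Areg, amphiregulin, differed by 2.94 and Hbegf by 2.08 on the log2 scale, with Hbegf at log2 fold change -0.06, adjusted p = 0.905 at 24 h. Among 22 ER and integrated stress genes 8 were more positive at 24 h and 2 more negative, Ddit3, which encodes CHOP, by 2.84 and Hspa5, the chaperone BiP, by 1.03. Neither passed the test within 24 h. In the Notch list Jag2 (-1.90), Dll1 (-1.58), Dtx4 (-2.40) and Lfng (-0.89) were more negative at 24 h, and Notch3 (1.22) was more positive. Of 7 basal and stress keratins 5 were more positive at 24 h, Krt16 by 1.89 and Krt6b by 1.61, and Krt15 was more negative (-1.97). Of 20 YAP/TAZ targets 7 were more negative and 2 more positive, Dock5 by -0.83 and F3 by 0.95.

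Of the named genes not called, 5 passed the test when LCM 3 was left out. Areg had a log2 fold change of -0.69 (edgeR adjusted p = 0.0883) with it and -0.90 (edgeR adjusted p = 0.0345) without it. Krt1 (2.79), Pla2g4d (1.83), Vegfa (-0.92) and Slc7a11 (-0.86) were the others, with edgeR adjusted p = 2.5e-06, 0.0376, 0.0349 and 0.040 without it. Some other settings also brought calls, the exact test for Areg, DESeq2 for Pla2g4d and the length offset for Slc7a11.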
